A study of Homo sapiens with 6 samples.

Results

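The genes of the cohesin complex, its regulators and separase were examined in RNA-seq of HCT116 cells, a human colorectal carcinoma line, after depletion of NONO, a nuclear RNA- and DNA-binding protein of paraspeckles. The 10 genes, SMC1A, SMC3, RAD21, STAG1, STAG2, WAPL, PDS5A, PDS5B, ESPL1 and PTTG1, were picked by matching the Ensembl identifiers to these symbols, out of 62492 genes listed for each library. All 10 were among the 17000 genes with enough counts to be tested. Wild-type cells transfected with control siRNA (siControl) were compared with cells transfected with an siRNA against NONO (siNONO), both at 20 nM with the RNAiMAX reagent, in 3 libraries per group. Each of Sets 1 to 3 held a siControl library and its siNONO partner, and the submitters described them as biological replicates. Every siNONO library came from the same siRNA design, so an effect on NONO and an effect of this siRNA on other transcripts cannot be told apart here, and the time of harvest was not given in the sources used here.

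Cohesin is a ring of proteins that holds sister chromatids together from replication until anaphase and that also folds interphase chromatin into loops. SMC1A and SMC3 are its long ATPase arms, RAD21 is the kleisin that closes the ring, and STAG1 or STAG2 binds RAD21 as an alternative subunit. WAPL opens the ring with the help of PDS5A or PDS5B and so takes cohesin off chromatin, whereas separase (ESPL1) cuts RAD21 at anaphase, and securin (PTTG1) holds separase inactive until the anaphase-promoting complex marks securin for destruction. Transcripts of ESPL1 and PTTG1 are known to rise towards mitosis in cycling cells.

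Because ESPL1 had the largest change of the 10 genes, the sequences that bear on it are given first. The study listed the primer pair below for quantitative RT-PCR of ESPL1. The paper describes such measurements of selected genes in NONO knockout HCT116 cells with or without re-expressed NONO, among other cells. Those knockout cells are not the siRNA-transfected cells compared here. Both primers lay in coding exons of the transcript ENST00000257934, the forward primer in exon 17 of 31 at chr12:53677898-53677919 and the reverse primer in exon 18 at chr12:53679736-53679757 (GRCh37, gene on the plus strand). The pair spanned 104 bases of that transcript and, of all annotated transcripts, matched those of 1 gene, ESPL1.
ESPL1 forward primer: atctctgtcagtcggacctgca
ESPL1 reverse primer: caggtggaccttcttcacagag

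The 250 bases before a RefSeq start (build GRCh38.p14) are given for 3 genes with unlike responses, namely ESPL1, which fell most, PTTG1, its inhibitor, and STAG1, which was not called. Capitals mark matches on either strand to CCAAT, to TTTGAA and to TTTNNCGC, with N for any base. CCAAT is the motif of NF-Y, and TTTGAA is a CHR element of genes expressed late in the cycle. TTTNNCGC is a loose form of an E2F motif, so its matches need not be full E2F motifs.
ESPL1, chr12:53268049-53268298, plus strand: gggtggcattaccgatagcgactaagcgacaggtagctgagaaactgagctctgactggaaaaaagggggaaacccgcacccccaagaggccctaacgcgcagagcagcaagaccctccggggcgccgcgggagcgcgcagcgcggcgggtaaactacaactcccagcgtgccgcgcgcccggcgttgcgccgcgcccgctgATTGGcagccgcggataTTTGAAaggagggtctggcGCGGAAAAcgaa
PTTG1, chr5:160421605-160421854, plus strand: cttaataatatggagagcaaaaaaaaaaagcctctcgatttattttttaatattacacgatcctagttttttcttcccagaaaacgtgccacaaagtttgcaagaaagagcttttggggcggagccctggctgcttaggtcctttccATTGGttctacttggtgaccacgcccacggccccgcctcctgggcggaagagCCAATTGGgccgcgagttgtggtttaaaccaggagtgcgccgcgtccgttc
STAG1, chr3:136752379-136752628, minus strand: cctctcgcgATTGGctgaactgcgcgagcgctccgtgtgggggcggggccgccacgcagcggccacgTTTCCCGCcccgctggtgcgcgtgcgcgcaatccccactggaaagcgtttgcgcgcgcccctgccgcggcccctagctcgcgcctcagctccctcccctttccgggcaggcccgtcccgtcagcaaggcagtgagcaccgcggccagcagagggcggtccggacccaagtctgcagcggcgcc

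In the ESPL1 window a CCAAT match lay 48 to 44 bases before the start, a TTTGAA match 31 to 26 bases before it and a TTTNNCGC match 12 to 5 bases before it. The PTTG1 window held 3 CCAAT matches, the nearest pair overlapping between 51 and 44 bases before the start. It had no match to TTTGAA or TTTNNCGC, and other forms of these motifs were not searched. PTTG1 had another RefSeq start further on, and the same CCAAT matches lay 158 to 154, 106 to 102 and 103 to 99 bases before that start. STAG1 held a CCAAT match at 241 to 237 bases and a TTTNNCGC match at 183 to 176 bases before its start. Of the 10 genes, 9 had 13 windows in the table, some of which overlap, and 9 of the 13 windows held CCAAT, 2 held TTTGAA (ESPL1 and SMC3) and 5 held TTTNNCGC. Over all 35116 windows of the same length, 32.0% held CCAAT, 13.3% held TTTGAA and 5.92% held TTTNNCGC. These matches describe letters only and were not tested as binding sites.

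The libraries held 21765393 to 32659002 estimated counts. The knockdown was read first, and NONO had 496, 495 and 516 CPM (counts scaled to library size with edgeR's TMM factors) in siControl Sets 1, 2 and 3 and 89.5, 95.5 and 100.4 CPM in siNONO, or 18.9% of the siControl level. Of 6 markers of colon epithelium, EPCAM, CDH1, KRT8, KRT18 and KRT19 were all at 33.1 TPM (RSEM's transcript level per length and library size) or more in every library, while VIL1 was at 0.17 TPM or less. Leukocyte and endothelial markers reached at most 0.43 TPM and, of 5 fibroblast markers, only COL1A1 passed 0.41 TPM, at 16.2 to 19.0 TPM. Genes of the cell cycle moved with the groups as well. At the edgeR threshold given in the next paragraph, 41 of 43 S phase genes and 51 of 54 G2/M genes were called lower in siNONO. None was called higher, and the median log2 fold changes were -0.47 and -0.65. Over all genes tested, 23.4% were called lower and 23.2% higher. The S phase and G2/M lists held 0 of the 10 genes and 2 and 6 of the wider pathway genes given later. The part of the cell cycle genes in the values that follow was not tested, and in such bulk libraries a smaller share of cells in a phase and less RNA per cell cannot be told apart.

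Most of the cohesin genes were modestly lower in siNONO, and separase was lower by more. Calls were made at an adjusted p of at most 0.05 (edgeR, quasi-likelihood test blocked by Set, Benjamini-Hochberg adjustment), and 8 of the 10 genes were lower in siNONO, 1 was higher (STAG2) and 1 was not called (STAG1). Of all genes tested 23.4% were called lower and 23.2% higher. The median log2 fold change of the 10 genes was -0.30, against -0.0048 over all genes tested, and within Sets 1, 2 and 3 it was -0.23, -0.34 and -0.32. The 8 lower genes were lower in all 3 Sets, and their CPM ranges in the groups did not overlap, against 24.0% of all genes that did not overlap in this direction and 23.9% in the other. The changes spanned a narrow range apart from ESPL1, whose level fell to 47.4% of siControl, whereas the other lower genes kept 69.8% to 93.3%.

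**Figure D1:**
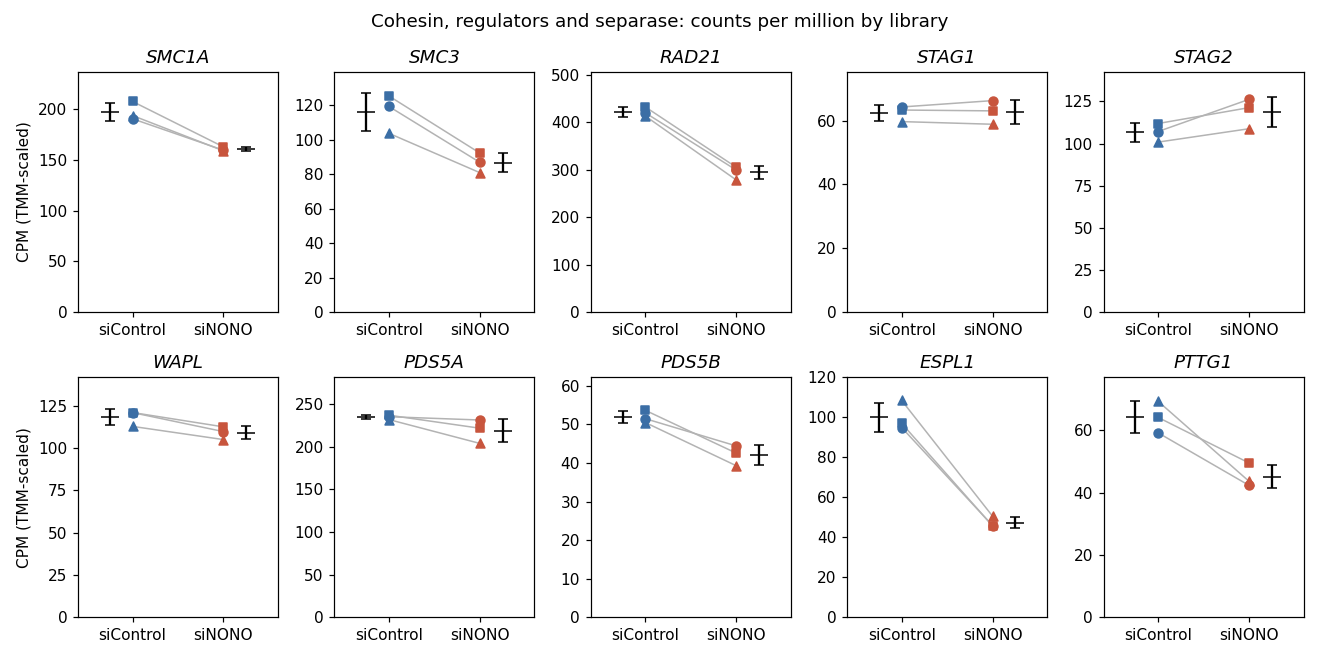
CPM of each of the 10 genes (y axes, from 0) in the 3 siControl (blue) and 3 siNONO (red) libraries, with circles for Set 1, squares for Set 2, triangles for Set 3 and bars for the group mean. ESPL1 lay at 94.9 to 108 CPM in siControl and at 45.7 to 50.6 CPM in siNONO, while the STAG1 and STAG2 groups overlapped.

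Separase was the gene that separated the groups furthest. ESPL1, at chr12:53662083-53687422 on the plus strand of GRCh37 with no annotated gene overlapping it, had 94.9, 97.0 and 108 CPM in siControl Sets 1, 2 and 3 and 45.9, 45.7 and 50.6 CPM in siNONO. The highest siNONO library was thus below the lowest siControl library by a gap larger than the spread inside either group. The group means were 100.08 ± 7.29 CPM and 47.4 ± 2.76 CPM (SD, n = 3 each). This came to -1.08 on the log2 scale (standard error 0.0374, 95% confidence interval -1.159 to -0.996, edgeR quasi-likelihood adjusted p = 3.77e-10 after Benjamini-Hochberg), and to -1.05, -1.09 and -1.10 in the Sets. Of all genes tested, 1.15% had a lower log2 fold change, and 1.26% were called lower by at least 1 on the log2 scale. These values rested on 2379 to 3126 counts per library in siControl and 1271 to 1414 in siNONO, all of them whole numbers before rounding.

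Securin fell with separase but by less. PTTG1 (chr5:159848862-159855746, plus strand, GRCh37) had 59.1, 64.1 and 69.2 CPM in siControl and 42.3, 49.5 and 43.6 CPM in siNONO. All siNONO libraries lay below all siControl libraries, although the fall was uneven, at -0.48, -0.37 and -0.67 on the log2 scale in Sets 1, 2 and 3. Over the Sets its log2 fold change reached -0.51 (standard error 0.0533, adjusted p = 6.90e-06 by the same edgeR test with Benjamini-Hochberg adjustment), from 64.1 ± 5.05 to 45.1 ± 3.82 CPM (SD, n = 3 each). The near-identical copies PTTG2 and PTTG3P had at most 3 counts in any library and were not tested, and the PTTG1 counts were whole numbers.

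Transcripts of all 3 ring proteins were lower in siNONO, and RAD21, the subunit that separase cuts, was lower by the most. Gene positions here are on GRCh37. RAD21 had 420, 433 and 414 CPM in siControl and 299.6, 306 and 279 CPM in siNONO. It fell from 422 ± 9.71 to 295 ± 14.1 CPM (SD, n = 3 each), a log2 fold change of -0.52 (standard error 0.0298, adjusted p = 3.55e-08 by the same edgeR test with Benjamini-Hochberg adjustment). The groups were far apart, and the change was similar in the Sets, at -0.49, -0.50 and -0.57. SMC3 (chr10:112327442-112365806, plus strand), the arm that is acetylated when cohesion is set up, had 119, 125 and 104 CPM in siControl and 87.0, 92.4 and 81.0 CPM in siNONO. Its Set 3 libraries were the lowest of both groups, and the groups did not overlap, with a log2 change of -0.42 (standard error 0.0354, adjusted p = 9.67e-07 by edgeR with Benjamini-Hochberg adjustment). SMC1A (chrX:53401070-53449677, minus strand), the partner arm, had 191, 208 and 194 CPM in siControl and 160, 163 and 159 CPM in siNONO. The siNONO libraries were close together and below siControl, and the log2 fold change reached -0.30 (standard error 0.0321, adjusted p = 8.42e-06 by edgeR with Benjamini-Hochberg adjustment).

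The alternative subunits were not called lower, unlike the ring. STAG1 (chr3:136055078-136471245, minus strand) had 64.3, 63.3 and 59.7 CPM in siControl and 66.3, 63.1 and 58.9 CPM in siNONO. The groups overlapped in full, and the 95% confidence interval of its log2 fold change, -0.08 to 0.09, bounds a change in either direction to a small size (adjusted p = 0.900 by edgeR with Benjamini-Hochberg adjustment). STAG2 (chrX:123094062-123556514, plus strand), the more abundant of the pair per length, had 107, 112 and 101 CPM in siControl and 126, 121 and 109 CPM in siNONO. The siNONO library of Set 3 lay inside the siControl range, but within each Set siNONO was the higher, by 0.24, 0.12 and 0.11 on the log2 scale. With the Set as a block STAG2 was called higher at a log2 fold change of 0.16 (standard error 0.0366, adjusted p = 0.00364 by edgeR with Benjamini-Hochberg adjustment). That call rested on the Set 1 libraries and on the block, since the adjusted p was 0.0681 without siControl replicate 1, 0.0764 without siNONO replicate 1 and 0.0819 without the block, and by limma on log2(TPM + 1) its sign turned, to -0.02.

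Among the release factors, all 3 were called lower on the count scale, but their order depended on the scale. PDS5B (chr13:33160589-33352157, plus strand), which both helps WAPL and protects cohesin, had 51.4, 53.6 and 50.4 CPM in siControl and 44.4, 42.5 and 39.3 CPM in siNONO. The CPM groups did not overlap, and the log2 fold change reached -0.30 (standard error 0.0466, adjusted p = 0.000180 by edgeR with Benjamini-Hochberg adjustment). WAPL (chr10:88195013-88281549, minus strand) had 121, 121 and 113 CPM in siControl and 109.7, 112.5 and 105 CPM in siNONO. Its groups missed each other by less than 1 CPM, and the log2 fold change of -0.12 (95% confidence interval -0.19 to -0.05) had an adjusted p of 0.0108 in edgeR with Benjamini-Hochberg adjustment. PDS5A (chr4:39824483-39979576, minus strand), the more abundant PDS5 per length, had 235, 237 and 232 CPM in siControl and 231, 222 and 204 CPM in siNONO. The siNONO library of Set 1 nearly reached the siControl libraries, and the change was uneven over the Sets, at -0.02, -0.10 and -0.19, with -0.10 over all (95% confidence interval -0.18 to -0.02, adjusted p = 0.0316 by edgeR with Benjamini-Hochberg adjustment). By limma on log2(TPM + 1) WAPL was at -0.23 and PDS5A at -0.21, both called and about as large as PDS5B at -0.18, which was not called. The edgeR calls of WAPL and PDS5A were lost when a library of certain Sets was left out. With the Set as a block, a library whose partner is left out hardly bears on the fold change. Leaving out either library of a Set is therefore nearly the same check. The WAPL adjusted p ran up to 0.124 without either library of Set 1 or Set 2. The PDS5A adjusted p ran up to 0.170 without either library of Set 2 or Set 3, and without the block they were 0.111 and 0.170. The log2 fold change of WAPL stayed between -0.12 and -0.10 in those fits, while that of PDS5A moved to -0.055 without siControl replicate 3 and to -0.058 without siNONO replicate 3. DESeq2 with the block gave WAPL and PDS5A adjusted p-values of 0.0809 and 0.0805, and with no filter on low counts that of PDS5A was 0.0611 in edgeR.

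**Figure D2:**
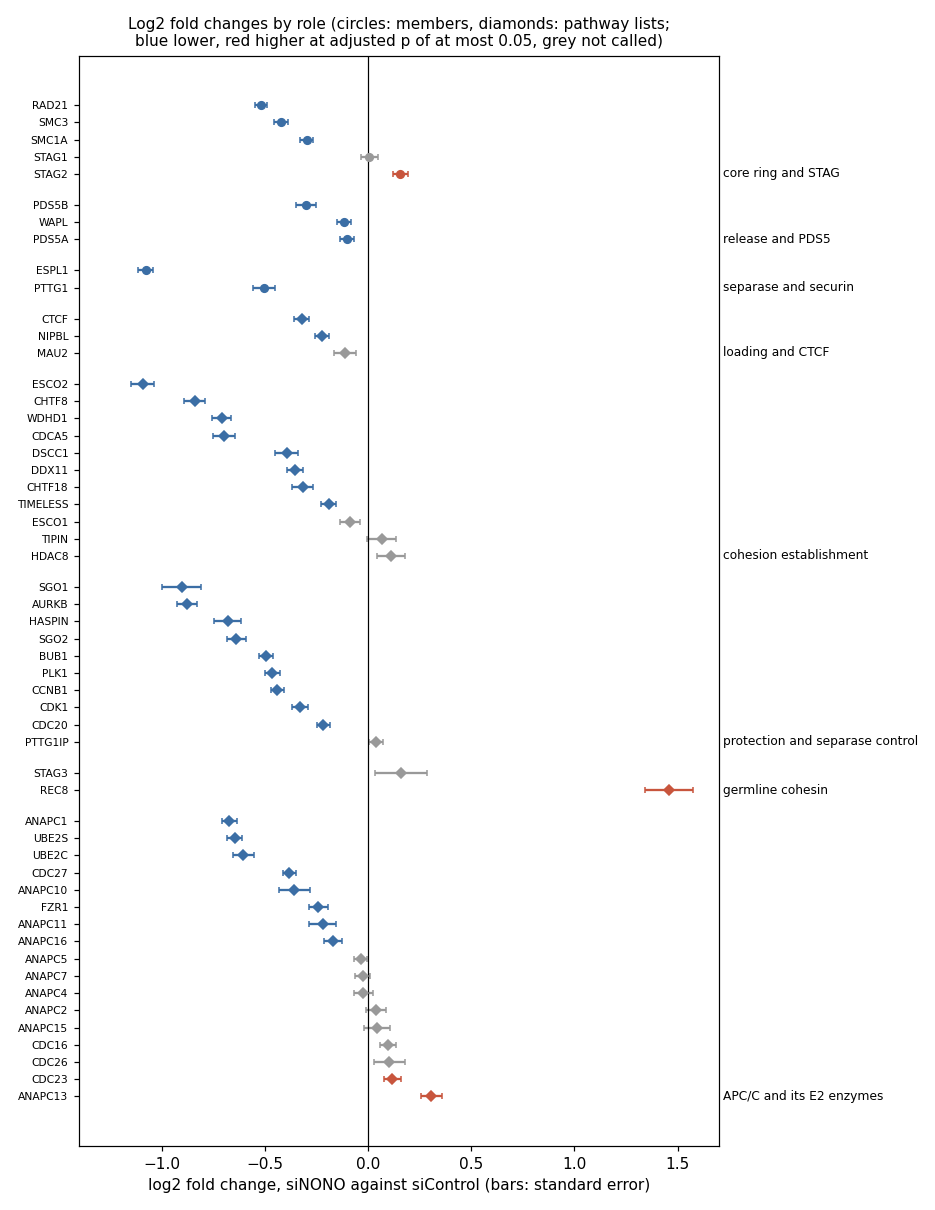
Log2 fold change of siNONO over siControl (x axis) for the 10 genes and for the wider cohesin pathway, grouped by role. Lines give the standard error from edgeR, which is narrower than the 95% confidence interval. ESPL1 at -1.08 and ESCO2 at -1.09 lay furthest to the left, and REC8 at 1.46 furthest to the right.

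Levels of different genes were compared per length, as TPM. In siControl RAD21 was the most abundant at 191 ± 2.28 TPM, followed by PTTG1 at 173 ± 12.6, SMC1A at 67.0 ± 2.61, PDS5A at 51.5 ± 1.48, STAG2 at 36.8 ± 2.88 and ESPL1 at 34.9 ± 1.29 TPM (SD, n = 3 each). Below them came SMC3 at 30.9 ± 2.73, WAPL at 29.7 ± 1.09, STAG1 at 17.5 ± 0.670 and PDS5B at 17.4 ± 1.42 TPM. Of these neighbours, STAG2 and ESPL1, SMC3 and WAPL, and STAG1 and PDS5B overlapped in their libraries. In siNONO the order was the same at the top, with RAD21 at 125 ± 2.19 and PTTG1 at 116 ± 7.54 TPM overlapping, but ESPL1 stood at 15.6 ± 0.496 TPM beside STAG1 at 16.5 ± 1.54 and PDS5B at 15.3 ± 2.72 TPM, and it overlapped both. ESPL1 was thus above WAPL in siControl and below it, at 15.6 against 25.3 ± 0.876 TPM, in siNONO, with no overlap in either group.

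**Figure D3:**
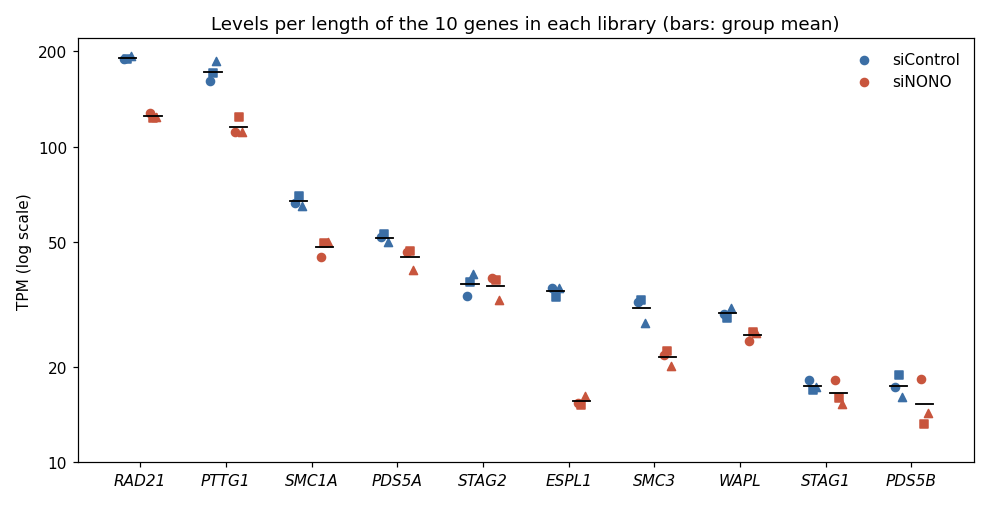
TPM of the 10 genes (log axis) in the 3 siControl (blue) and 3 siNONO (red) libraries, ordered by the siControl mean, with circles, squares and triangles for Sets 1, 2 and 3. ESPL1 moved from 34.9 TPM, next to STAG2, to 15.6 TPM, next to STAG1 and PDS5B.

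Ratios taken inside a library do not depend on the scaling between libraries, and 5 were compared over TPM with exact two-sided permutation tests. Group labels were permuted over all libraries without regard to the Set, and the smallest possible p is 0.1 with 3 libraries against 3. Permuted within Sets, which keeps the pairing, the smallest possible p is 0.25. The ratio of securin to separase was 4.51, 5.12 and 5.23 in siControl and 7.19, 8.16 and 6.88 in siNONO. Every siNONO library had more securin transcript for each separase transcript than any siControl library (exact permutation p = 0.1, adjusted over the 5 ratios 0.25), a log2 difference of 0.58. The ratio of WAPL, which opens the ring, to RAD21 was 0.156, 0.152 and 0.160 in siControl and 0.191, 0.210 and 0.207 in siNONO. Again the groups did not overlap, with a log2 difference of 0.38 (exact permutation p = 0.1, adjusted 0.25). Permuted within Sets, both ratios had an exact permutation p of 0.25. Neither ratio can pass a threshold of 0.05 in this design by either form of the test.

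On the TPM scale, the proportions of the paralogs and of the ring arms moved by less than the spread between libraries, but those of the paralogs differed between groups on the count scale. STAG1 to STAG2 in TPM was 0.477 ± 0.0549 in siControl and 0.457 ± 0.0298 in siNONO (SD, n = 3 each, exact permutation p = 0.8), and PDS5A to PDS5B in TPM was 2.96 ± 0.156 and 2.96 ± 0.528 (exact permutation p = 1.0). The ring arms, SMC1A to SMC3, stood at TPM ratios of 2.18 ± 0.144 and 2.23 ± 0.222 (exact permutation p = 0.7). Ratios of estimated counts with no division by length, which can be compared between libraries but are not relative levels, were added after the data were seen. In counts PDS5A to PDS5B was 4.57, 4.42 and 4.59 in siControl and 5.21, 5.21 and 5.19 in siNONO, a log2 difference of 0.20, with 0.19, 0.24 and 0.18 in the Sets. STAG1 to STAG2 in counts was 0.5999, 0.566 and 0.592 in siControl and 0.525, 0.520 and 0.541 in siNONO, a log2 difference of -0.15. Neither paralog pair overlapped between groups in counts (exact permutation p = 0.1 for each, adjusted over the 5 ratios 0.125), whereas SMC1A to SMC3 overlapped. Whether these proportions changed therefore depended on the assigned transcript lengths, which for PDS5B and STAG2 varied between libraries of a group. STAG2 made up 64.9% to 69.5% of the summed STAG TPM in siControl and 67.7% to 70.3% in siNONO. Set against RAD21, the summed STAG TPM came to 0.274, 0.287 and 0.294 in siControl and 0.445, 0.437 and 0.387 in siNONO, so the groups did not overlap, a ratio that was computed after the values of its genes were seen and was not tested.

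**Figure D4:**
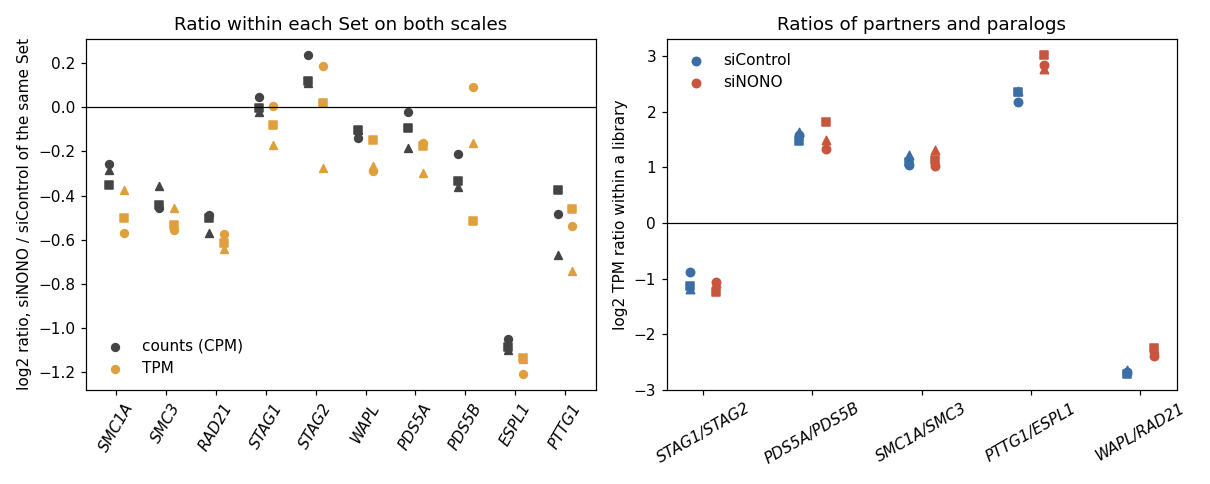
Left, log2 ratio of siNONO to siControl in each Set for the 10 genes, from CPM (dark) and from TPM (orange). Right, log2 of 5 TPM ratios in each siControl (blue) and siNONO (red) library, with circles, squares and triangles for Sets 1, 2 and 3, where PTTG1/ESPL1 and WAPL/RAD21 were higher in every siNONO library and the other 3 ratios overlapped.

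CPM and TPM gave different values for several genes. TPM also divides by the mean length of the transcripts that the reads were assigned to and is scaled differently between libraries, and the part of each in the shifts was not tested. ESPL1 had 35.7, 33.4 and 35.6 TPM in siControl and 15.5, 15.2 and 16.2 TPM in siNONO, much as on the CPM scale. PDS5B did not, with 17.3, 18.9 and 16.1 TPM in siControl and 18.4, 13.2 and 14.4 TPM in siNONO. The siNONO library of Set 1 was above the siControl library of its own Set, and the mean transcript length assigned to PDS5B in that library was 3443 bases, against 4119 to 4657 bases in siControl and 4379 and 3830 bases in the other siNONO libraries. By limma on log2(TPM + 1) the PDS5B log2 fold change was -0.18 (adjusted p = 0.276 with Benjamini-Hochberg adjustment). STAG2 had 33.7, 37.4 and 39.4 TPM in siControl and 38.4, 37.9 and 32.6 TPM in siNONO, and its assigned length in siControl ran from 3838 bases in Set 3 to 4732 bases in Set 1. Its TPM groups overlapped, with log2 ratios of 0.19, 0.02 and -0.28 in the Sets. By limma on log2(TPM + 1), where the median of all genes was -0.07, the fall was larger than in edgeR for SMC1A (-0.47), SMC3 (-0.50), RAD21 (-0.61), PTTG1 (-0.57), ESPL1 (-1.11), WAPL (-0.23) and PDS5A (-0.21). WAPL had 29.6, 28.7 and 30.9 TPM in siControl and 24.3, 25.9 and 25.6 TPM in siNONO. PDS5A had 51.6, 52.8 and 49.9 TPM in siControl and 46.2, 46.8 and 40.6 TPM in siNONO, and neither gene overlapped between groups. On the TPM scale 7 of the 10 genes did not overlap between groups, all lower, against 29.4% of all genes in that direction. None of the 10 had transcript lengths that separated the groups, against 11.3% of all genes. Lengths shared among many annotated isoforms are themselves estimates, and no count per isoform was analysed here.

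The wider pathway was read from lists of 47 genes, of which 43 were tested. Of the 43 genes, 27 were lower (62.8%), 3 were higher (6.98%) and 13 were not called, with a median log2 fold change of -0.24. Over all genes tested, 23.4% were called lower and 23.2% higher. Among the loading genes, NIPBL, the main subunit of the loader, was lower at -0.22 (adjusted p = 0.000123), CTCF, which stops cohesin at loop anchors, was lower at -0.32 (adjusted p = 1.19e-05), and MAU2, the partner of NIPBL, stood at -0.11 (adjusted p = 0.0995), all by edgeR with Benjamini-Hochberg adjustment.

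Genes that establish cohesion during replication were lower in 8 of 11 cases (72.7%, against 23.4% of all genes tested), with a median of -0.35. ESCO2, the acetyltransferase that locks cohesin on replicated DNA in S phase, had 39.3, 38.3 and 35.7 CPM in siControl and 18.2, 19.1 and 15.9 CPM in siNONO. Those groups were far apart, and its log2 fold change of -1.09 (standard error 0.0558, adjusted p = 1.26e-08 by edgeR with Benjamini-Hochberg adjustment) was close to that of ESPL1. Its relative ESCO1, which acts outside S phase as well, was at -0.09 and was not called (adjusted p = 0.156 by edgeR with Benjamini-Hochberg adjustment). CDCA5, which encodes sororin, the guard of cohesin against WAPL, was lower at -0.70. CHTF8 at -0.84, DSCC1 at -0.39 and CHTF18 at -0.32, subunits of the alternative clamp loader, were lower too, as were the fork factor WDHD1 at -0.71, the helicase DDX11 at -0.35 and TIMELESS at -0.19. HDAC8, which removes the acetyl mark from SMC3, was at 0.11 and TIPIN, the partner of TIMELESS, at 0.07, neither of them called.

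Of 10 genes that protect centromeric cohesin or control separase, 9 were lower (90.0%, against 23.4% of all genes tested), with a median of -0.48. The shugoshins SGO1 and SGO2, which shield cohesin at centromeres, were at -0.90 and -0.64. The kinases of mitotic chromosomes were lower as well, with AURKB at -0.88, HASPIN at -0.68, BUB1 at -0.49 and PLK1 at -0.46. CCNB1 and CDK1, which together hold separase inactive, were at -0.44 and -0.33, and CDC20, the activator of the anaphase-promoting complex, was at -0.22. PTTG1IP, a securin-binding protein, stood at 0.04 and was not called. The anaphase-promoting complex and its ubiquitin-conjugating enzymes lay nearer to no change by their median of -0.04. Of these 17 genes, 8 were lower (47.1%), 2 were higher (11.8%) and 7 were not called. Over all genes tested, 23.4% were lower and 23.2% higher, so the share called lower was still above that of all genes. Its lowest genes were ANAPC1 at -0.67 and UBE2S at -0.65, and its higher genes were ANAPC13 at 0.31 and CDC23 at 0.12.

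The germline cohesin genes held the largest rise of these lists. REC8, the meiotic kleisin that takes the place of RAD21, is on the plus strand of chromosome 14 at chr14:24641062-24649463 (GRCh37) and had 3.43, 2.99 and 2.73 CPM in siControl and 8.63, 8.34 and 8.30 CPM in siNONO, from 60 to 113 counts and 232 to 247 counts per library. The groups did not overlap, and the log2 fold change reached 1.46 (standard error 0.117, adjusted p = 6.31e-07 by edgeR with Benjamini-Hochberg adjustment), or 275% of siControl. In TPM the rise was smaller, from 5.24, 5.70 and 4.72 TPM in siControl to 9.70, 9.95 and 8.09 TPM in siNONO, with log2 ratios of 0.89, 0.80 and 0.78 in the Sets. REC8 was far below RAD21 in TPM in all libraries. The lengths assigned to its transcripts also differed, at 1134, 931 and 1022 bases in siControl and 1401, 1293 and 1567 bases in siNONO. REC8 overlaps a protein-coding gene on the opposite strand, and the part of that gene in the REC8 counts was not tested. STAG3, the meiotic STAG, stood at 0.16 and was not called (adjusted p = 0.330 by edgeR with Benjamini-Hochberg adjustment), and SMC1B and RAD21L1, with at most 6 counts in any library, were not tested.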

How the data were processed

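RNA-seq of HCT116 cells was held for 3 siControl and 3 siNONO libraries. Per gene, the authors, who used sickle for trimming, STAR with GENCODE version 34 (GRCh37) and RSEM (version 1.3.1), deposited an estimated count, which is not normalized and need not be whole, a TPM scaled for length and library size, and 2 other measures, the mean transcript length and the effective length. The library kit was stranded, and the strand setting of the counting was not given in the sources used here. All of the 10 genes but ESPL1 and PTTG1 overlap other annotated genes, which for SMC1A, RAD21, STAG1 and STAG2 include protein-coding genes.

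The estimated counts were rounded and tested by quasi-likelihood in edgeR (version 4.0.16, with the older edgeR 3 form of the test), after TMM scaling and filterByExpr, in a model blocked by Set, and p-values of 17000 genes were adjusted by Benjamini-Hochberg. The study's methods name batches as a covariate without saying what they were, and the Set is the only batch-like label. Set numbers come from the labels, and deviations of same-numbered libraries correlated at 0.435, 0.255 and 0.512 over 10840 genes, while libraries of different Sets ran from -0.445 to 0.165. The deviations were taken from each group's mean, so positive values within Sets force negative ones between Sets on the whole. Libraries of Sets 1 and 2 correlated at 0.165 and 0.147 with each other, not far below the 0.255 within Set 2. The biological coefficient of variation left after the Set block was 3.51%. Replicates of a group, which come from different Sets, differed by more than sampling noise. On counts made with known changes, the test recovered 98% of genes changed 1.5-fold and 100% of those changed 2-fold. Those counts had a single dispersion for all genes and no differences between Sets, and genes of low count were left unchanged. The recovery therefore need not hold for the real libraries. Smaller changes were not simulated, and among the cohesin genes, regulators and separase only ESPL1 (2.11-fold) changed by more than 1.5-fold. The recovery therefore cannot speak to smaller falls, such as those of RAD21 (1.43-fold), WAPL (1.08-fold) and PDS5A (1.07-fold). Each standard error is the size of the log2 change over the root of F. TPM ratios were compared by exact permutation without the Set pairing and, as an alternative, within Sets. Positions and primers were matched to GENCODE version 44 mapped to GRCh37, and promoters came from RefSeq on GRCh38.p14.

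The text names NONO, the 10 genes, cell type markers, the genes of the pathway lists, the lowest and highest called genes of the anaphase-promoting complex list and, chosen after its values were seen, IRF9. The 10 genes and all lists were chosen with earlier results of these data known. The alternatives used size factors of DESeq2 or library sizes alone, other filters on low counts, no block, the edgeR 4 form, DESeq2 (version 1.42.0), limma (version 3.58.1) on log2(TPM + 1) or log2(TPM + 0.1), and each library left out in turn. Ratios of counts with no division by length were added after the data were seen.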

Additional observations from a re-analysis of the deposited data

How the results depend on the processing

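ESPL1, PTTG1, RAD21, SMC1A and SMC3 were called lower under all 15 alternatives, with log2 fold changes of -1.15 to -1.06, -0.58 to -0.42, -0.61 to -0.49, -0.48 to -0.26 and -0.51 to -0.40. PDS5B was called in 13 of 15 and not by limma on TPM, while STAG2 was called in 10, WAPL in 9, PDS5A in 8 and STAG1 in 0. These alternatives all drew on the same libraries and are not independent checks. Leaving out either library of a Set gave nearly the same fit, and the limma settings differed only in the value added to TPM. Without the replicate block 6 of the 10 genes were lower and 0 higher, and 6164 genes changed in all, against 7924 with it. By limma on log2(TPM + 1) and log2(TPM + 0.1), 0 of the 10 genes were higher, and 5257 and 5250 genes changed in all, while DESeq2 with the replicate block gave 5227. Of the genes called, 49.7% were higher in edgeR and 31.3% and 31.2% by limma on TPM, where the median of all genes was -0.07 and -0.09. STAG1 turned sign with library size alone (-0.0085) and by limma on TPM (-0.077 and -0.081), as did STAG2 by limma (-0.023 and -0.023). The cause of these shifts was not tested. With 1 library left out, the counts ran from 6 to 7 genes lower and 0 to 1 higher, and 6497 to 7653 genes in all, and the STAG2 call was lost without either library of Set 1. The log2 fold change of STAG1 then ran from -0.011 to 0.026, and the log2 differences of the ratios ran from -0.12 to 0.034 for STAG1/STAG2, -0.15 to 0.097 for PDS5A/PDS5B and -0.043 to 0.098 for SMC1A/SMC3. In counts with no division by length, chosen after seeing the data, PDS5A/PDS5B turned sign to 0.20. With 1 library left out, PTTG1/ESPL1 stayed between 0.51 and 0.63 and WAPL/RAD21 between 0.35 and 0.42.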

Other observations

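REC8 lies 3809 bases beyond the end of IRF9 on the same strand of chromosome 14 (GRCh37). IRF9, a subunit of the interferon-activated complex ISGF3, had 13.4, 13.2 and 15.2 CPM in siControl Sets 1, 2 and 3 and 59.1, 54.0 and 59.5 CPM in siNONO. Its log2 fold change was 2.05 (adjusted p = 4.29e-11 by edgeR with Benjamini-Hochberg adjustment). IRF9 was looked up after the REC8 values were seen, and no link between the transcripts of these neighbours was tested.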
